A study of Homo sapiens with 6 samples.

Results

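The oncofetal genes described here are HMGA1 and HMGA2, IGF2BP1, IGF2BP2 and IGF2BP3, and LIN28B, chosen by gene symbol. Of these 6 genes, 5 had values among the 21173 genes counted, and 4 had enough reads to enter the test of 14431 genes; LIN28B expression was not analysed here. RNA was sequenced from TPC1, an established human papillary thyroid cancer line. The compared groups were TPC1 cells with a vector, whose genotype is labelled WT, and TPC1 cells overexpressing the transcription factor TFCP2L1, with 3 libraries each. The labels give no promoter for the transgene, no clone or pool and no time after its introduction. Nor do they state that each replicate was its own culture. The p-values here therefore reflect the spread among these libraries, and that spread may be technical.

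Oncofetal genes are active in the embryo, are low in most adult tissues and are found again in many tumours. HMGA1 and HMGA2 are small chromatin proteins that bend AT-rich DNA through AT hooks and so change the access of other factors. IGF2BP1, IGF2BP2 and IGF2BP3 are RNA-binding proteins that hold and stabilise mRNAs, including those carrying N6-methyladenosine, and are named after their binding to IGF2 mRNA. LIN28B blocks the maturation of let-7 microRNAs, and let-7 in turn pairs with sites in the 3′ untranslated regions (3′ UTRs) of HMGA2, the IGF2BP genes and LIN28B itself. In thyroid tumours HMGA2 and IGF2BP3 are both known as markers of malignancy, and IGF2BP3 can be activated by fusion with THADA.

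The let-7 family is shown first, because pairing through its seed is the feature by which this gene set is usually grouped. The 9 mature members in RefSeq (GRCh38.p14) came from 12 loci and had 1 common seed, bases 2 to 8, given in capitals in these 3 examples.
hsa-let-7a-5p: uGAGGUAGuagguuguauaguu
hsa-let-7b-5p: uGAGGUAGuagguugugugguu
hsa-miR-98-5p: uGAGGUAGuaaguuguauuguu
The complement of the seed, CTACCTC, was sought in the 3′ UTRs of GENCODE v29 transcripts (GRCh38), on the strand of the gene. The principal HMGA2 transcript (ENST00000403681.6) held 4 matches in a 3′ UTR of 3003 bases. They are printed 5′ to 3′ with the match in capitals, and lie on the plus strand at chr12:65963298-65963320, chr12:65964533-65964555, chr12:65964945-65964967 and chr12:65965798-65965820.
HMGA2 match 1: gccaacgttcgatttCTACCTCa
HMGA2 match 2: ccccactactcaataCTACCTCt
HMGA2 match 3: ttgacttgcaaagacCTACCTCc
HMGA2 match 4: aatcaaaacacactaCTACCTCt
The other 3 tested members had 1 match each in their principal transcripts, at chr6:34245829-34245851 (plus strand) for HMGA1, chr3:185644220-185644242 (minus strand) for IGF2BP2 and chr7:23311795-23311817 (minus strand) for IGF2BP3.
HMGA1 match: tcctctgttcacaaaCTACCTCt
IGF2BP2 match: aacacacagaagaagCTACCTCa
IGF2BP3 match: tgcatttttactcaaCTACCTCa
IGF2BP1 and LIN28B held 4 matches each. Among 12338 tested genes with an annotated 3′ UTR, 10% had at least 1 match and 0.0729% had at least 4, so HMGA2 was 1 of 9 such genes. The 6 other annotated HMGA2 transcripts with a 3′ UTR held 0 matches, including the one with the longest 3′ UTR (7421 bases). Gene-level counts do not separate these transcripts, and a match is a run of letters, not a measured site. The let-7 microRNAs themselves were not measured.

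Library totals ran from 37928516 to 38987434 reads and 17805 to 18102 genes had a read. TFCP2L1 reads numbered 0, 0 and 1 with the vector and 13578, 13885 and 12333 with the transgene. Of 8 thyroid follicular cell markers 4 were tested and 0 were called; PAX8 was at 544 ± 24.4 and 478 ± 47.4 CPM (read counts scaled by TMM to the library total; mean ± SD, n = 3, as throughout), while TG was near 1 CPM in both groups. The summed leukocyte markers ranged from 70.1 to 85.6 CPM in vector and from 98.4 to 125 CPM in TFCP2L1 libraries, with the defining marker PTPRC near 0. Of the 2 tested, CD68 was called higher (68.8 ± 6.06 and 106 ± 14.2 CPM) and ITGAX lower (7.49 ± 1.90 and 2.41 ± 0.498 CPM); what part this has in the results was not tested. Mitochondrial genes took the largest share of reads in vector replicate 2 (6.72%) and TFCP2L1 replicate 3 (7.59%), against 5.13% to 5.80% in the other 4 libraries.

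With TFCP2L1 overexpression, HMGA1 and IGF2BP3 mRNA rose and HMGA2 mRNA fell, while IGF2BP2 was not called and IGF2BP1 stayed at the floor of detection. By edgeR's quasi-likelihood test, with a Benjamini-Hochberg adjusted p under 0.05 as the threshold, 3 of the 4 tested members were called, beside 11.6% of all 14431 genes. The 2 called higher stand beside 4.63% of genes called higher, and the 1 called lower beside 6.94% called lower. The members were proposed with results of these data known, so this count is a description. For these 3 members the vector and TFCP2L1 ranges were separate, as they were for 30.0% of all tested genes in either direction. In bulk RNA, fewer cells of a type and less RNA per cell cannot be told apart.

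**Figure D1:**
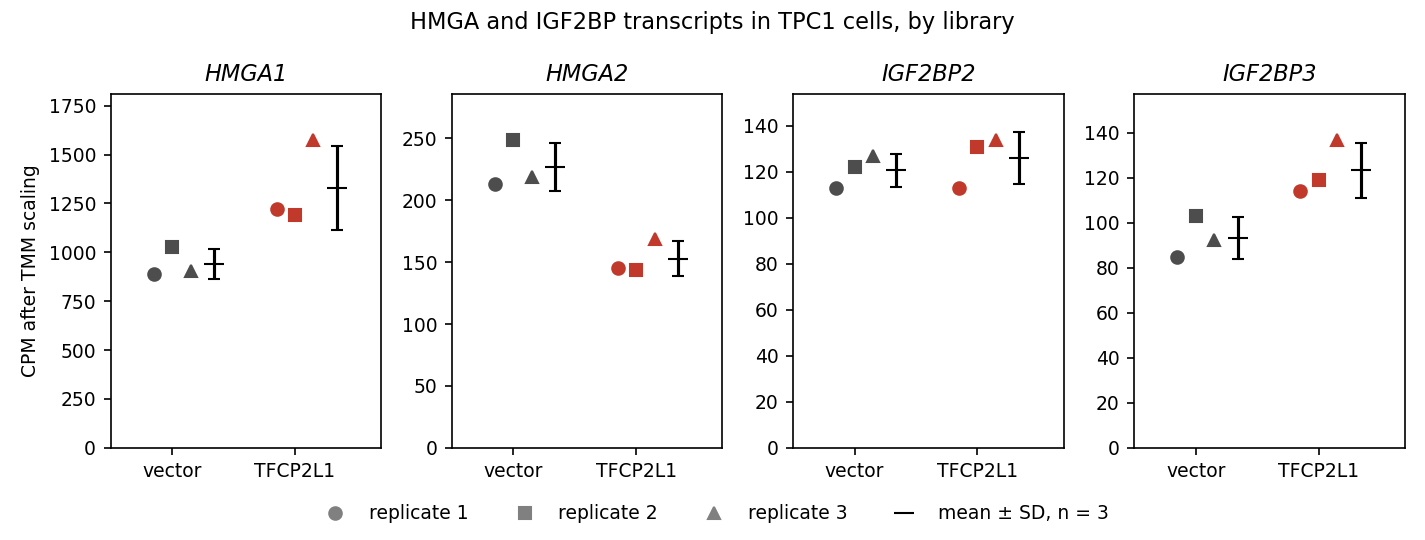
Level of each tested member in every library, in CPM after TMM scaling on linear axes that start at 0. Circles, squares and triangles are replicates 1, 2 and 3, and the bars are the mean ± SD of 3 libraries. The groups separate for HMGA1, HMGA2 and IGF2BP3 and overlap for IGF2BP2.

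HMGA1 (ENSG00000137309.19, chr6:34236873-34246231, plus strand), the more widely expressed of the pair of AT-hook genes, had 890, 1028 and 904 CPM in the vector libraries and 1224, 1189 and 1576 CPM in the TFCP2L1 libraries. Every TFCP2L1 library was above every vector library, as for 14.4% of all tested genes, and TFCP2L1 replicate 3 stood above its group. The mean moved from 941 ± 76.0 to 1330 ± 214 CPM. The log2 fold change was 0.50 ± 0.10 (SE; 95% interval 0.28 to 0.72), 41.3% higher, with an edgeR adjusted p of 0.00455. The exact two-sided permutation test of the 6 CPM values gave p = 0.1, which is the lowest value reachable with 3 libraries a group. GENCODE names 8 pseudogenes after HMGA1, and 0 of them were among the counted genes under these names. Whether the authors' counting split or dropped reads shared with them is not known.

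HMGA2 (ENSG00000149948.13, chr12:65824131-65966295, plus strand), the paralogue largely restricted to embryonic and tumour cells, had 213, 249 and 219 CPM in the vector libraries. In the TFCP2L1 libraries it had 145, 144 and 169 CPM. The groups did not overlap (15.6% of all tested genes were lower in this way), with a gap between the lowest vector library and the highest TFCP2L1 library. HMGA2 fell from 227 ± 18.9 to 153 ± 14.5 CPM, and its log2 fold change was −0.57 ± 0.09 (SE; 95% interval −0.75 to −0.39), with an edgeR adjusted p of 0.000298. Its antisense gene HMGA2-AS1 had 0, 4 and 0 reads in vector and 1, 0 and 0 reads in TFCP2L1 libraries. Among all tested genes, the median absolute log2 fold change was 0.16, and among called genes it was 0.49.

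IGF2BP3 (ENSG00000136231.13, chr7:23310209-23470467, minus strand), the family member most tied to tumours, had 84.7, 103 and 92.4 CPM in the vector libraries and 114, 119 and 137 CPM in the TFCP2L1 libraries. All 3 TFCP2L1 libraries were above all 3 vector libraries. The mean rose from 93.4 ± 9.34 to 123 ± 11.9 CPM. The log2 fold change was 0.40 ± 0.09 (SE; 95% interval 0.21 to 0.59), or 32.0% higher. The edgeR adjusted p was 0.00767. Without vector replicate 1, the lowest library, the log2 fold change was 0.33 and the edgeR adjusted p was 0.0665, so the call was lost. Without vector replicate 3 they were 0.39 and 0.0499, close to the threshold. Leaving out vector replicate 1 or vector replicate 3 also lowered the number of all genes called, from 1670 to 943 and 934. MALSU1, a mitochondrial ribosome assembly gene on the opposite strand, overlaps 17.9% of the exon bases of IGF2BP3, and the sources used here do not state whether strand was kept. MALSU1 itself had 17.2 ± 1.74 and 19.4 ± 1.10 CPM and was not called (edgeR adjusted p = 0.376).

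IGF2BP2 (ENSG00000073792.15, chr3:185643739-185825056, minus strand), the family member that is also expressed in adult tissues and is a known transcriptional target of HMGA2, had 113, 122 and 127 CPM in vector and 113, 131 and 134 CPM in TFCP2L1 libraries. The groups overlapped. The log2 fold change was 0.06 ± 0.08 (SE; 95% interval −0.12 to 0.24), with an edgeR adjusted p of 0.703, and the interval leaves room for a small change either way. IGF2BP1 (ENSG00000159217.9, chr17:48997412-49055650, plus strand), the member with the narrowest embryonic expression, had 1, 0 and 1 reads in vector and 1, 1 and 0 reads in TFCP2L1 libraries. That is 2 reads of 114363589 and 2 of 115524436, each with an exact 95% Poisson interval of 0.242 to 7.22 reads that covers counting error only. Both groups were under the floor of 3 reads, so no fold is given and a change was not detectable at this depth.

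Levels were compared between genes only per length, with the deposited FPKM (reads divided by gene length and library total). HMGA1 was the most abundant member, at 400 ± 30.3 FPKM in vector and 576 ± 89.8 FPKM in TFCP2L1 cells, above 99.2% and 99.5% of tested genes. HMGA2 followed at 37.1 ± 2.90 and 25.4 ± 2.28 FPKM, IGF2BP2 at a median of 17.9 and 19.7 FPKM and IGF2BP3 at 15.2 ± 1.45 and 20.5 ± 1.84 FPKM. By these FPKM the order in vector libraries was HMGA1, HMGA2, IGF2BP2, IGF2BP3, with the ranges of the last pair close (16.8 to 18.9 against 13.8 to 16.7 FPKM). In TFCP2L1 libraries the ranges of IGF2BP2 (17.1 to 20.2 FPKM) and IGF2BP3 (19.1 to 22.5 FPKM) overlapped. Both genes were read in the same libraries, and their ratio within each library is given below. The deposited FPKM imply lengths of 6062 bases for HMGA2, 6691 for IGF2BP2 and 6082 for IGF2BP3. Their GENCODE v29 exons cover 15403, 4735 and 8511 bases. The order of these genes below HMGA1 therefore depends on the length chosen.

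Ratios of FPKM within a library show the shift between paralogues without any scaling between libraries. HMGA1 to HMGA2 was 10.9, 10.8 and 10.7 in the vector libraries and 22.0, 21.5 and 24.2 in the TFCP2L1 libraries. The vector libraries were nearly identical, and the ratio was 2.09-fold higher with TFCP2L1 (10.8 ± 0.0627 against 22.6 ± 1.44). IGF2BP3 to IGF2BP2 was 0.821, 0.933 and 0.798 in vector and 1.11, 1.0 and 1.12 in TFCP2L1 libraries, a 1.27-fold higher ratio. The fold of a ratio does not depend on the gene lengths behind the FPKM, but its level does. Whether IGF2BP3 passed IGF2BP2 in abundance is therefore not settled here. HMGA1 to IGF2BP3, the 2 members that rose, was 26.4 ± 1.01 and 28.1 ± 2.06, a difference within the spread. Of these 3 ratios, the first pair each gave an exact two-sided permutation p = 0.1, the lowest reachable here, and HMGA1 to IGF2BP3 gave an exact permutation p = 0.300; none can pass 0.05 in this design, before or after adjustment.

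**Figure D2:**
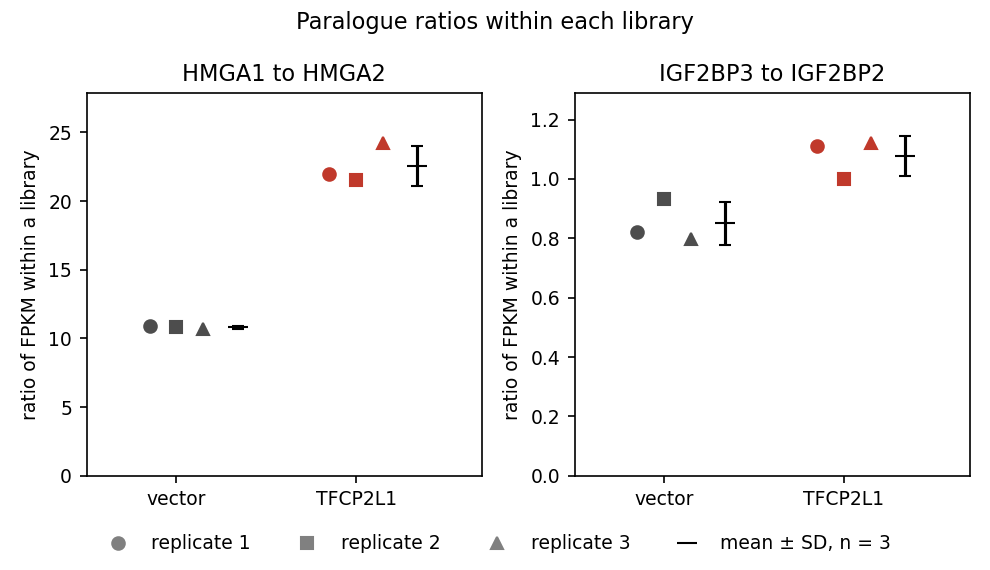
Ratio of FPKM between paralogues within each library, on linear axes from 0, for HMGA1 to HMGA2 (left) and IGF2BP3 to IGF2BP2 (right). Symbols are replicates 1 to 3 and bars are the mean ± SD of 3 libraries. The HMGA ratio lies between 10.7 and 10.9 in vector and between 21.5 and 24.2 in TFCP2L1 libraries.

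Within each group, HMGA1, HMGA2 and IGF2BP3 were all highest in the same library, vector replicate 2 and TFCP2L1 replicate 3. These were also the libraries with the largest mitochondrial share. Leaving both out, an alternative chosen after seeing the data, gave log2 fold changes of 0.43 for HMGA1 (edgeR adjusted p = 0.00112), −0.58 for HMGA2 (3.21e-05) and 0.40 for IGF2BP3 (0.00392). The HMGA1 to HMGA2 ratio then changed by 1.01 on the log2 scale, against 1.06 with all libraries.

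The genes most alike each member were sought among 11693 genes by Pearson correlation of log2 CPM over the 6 libraries, which mixes the group difference with the shared pattern of the libraries. Among the genes that matched HMGA2 were IL6 (r = 0.9956) and the zinc transporter gene SLC39A14 (r = 0.9949). SLC39A14 had a median of 394 CPM and a highest value of 413 CPM in vector libraries, against 323 and 340 CPM in TFCP2L1 libraries, and its log2 fold change was −0.29 ± 0.07 (edgeR adjusted p = 0.0136). It was highest within each group in the same library as HMGA2. Its call was lost without any single vector library (0.0588 to 0.0735) or without TFCP2L1 replicate 1 (0.0534). HMGA1 was matched by CHERP (r = 0.9986), the chaperone partner gene BAG3 (r = 0.9963) and the focal adhesion gene PXN (r = 0.9961). Their log2 fold changes were 0.33, 0.40 and 0.35, and each was called by edgeR, with all 3 calls lost without vector replicate 1 or vector replicate 3, and that of CHERP also without TFCP2L1 replicate 3.

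IGF2BP3 was matched by AP3M1 (r = 0.9974), MAST4 (r = 0.9970) and STC1 (r = 0.9952). STC1, which encodes the secreted hormone stanniocalcin, had 96.5, 119 and 101 CPM in vector and 129, 137 and 159 CPM in TFCP2L1 libraries. Its log2 fold change was 0.43 ± 0.09 (edgeR adjusted p = 0.00696; 0.0571 without vector replicate 1 and 0.0553 without vector replicate 3). IGF2BP2 was matched by TUT7 (r = 0.9951), a terminal uridylyltransferase that acts with LIN28 on let-7 precursors, ZNF462 (r = 0.9847) and TFCP2 (r = 0.9840), and their log2 fold changes were 0.03, 0.05 and 0.04. These correlations are descriptions over 6 shared libraries.

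Of 22 tested let-7 processing and turnover genes, 2 were called higher and 0 lower, beside 4.63% and 6.94% of all genes, with a median log2 fold change of 0.08 against 0.00 for all genes. AGO2, the effector that carries mature microRNAs, rose from 128 ± 5.83 to 163 ± 4.01 CPM (0.35 ± 0.07, edgeR adjusted p = 0.00421). TRIM25, a cofactor of let-7 precursor uridylation by LIN28A and TUT4, rose from 130 ± 0.300 to 158 ± 0.790 CPM (0.28 ± 0.07, edgeR adjusted p = 0.0119). Its call was lost without vector replicate 1 (0.0664) or vector replicate 3 (0.0665) and with replicate number as a block (0.0583). DICER1, which makes mature microRNAs, was at 61.2 ± 2.22 and 66.9 ± 6.93 CPM and was not called. The host transcript MIR100HG, which carries let-7 and miR-100 family hairpins, was at 37.0 ± 2.25 and 39.6 ± 3.15 CPM and was not called either.

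Among 31 tested genes known as let-7 targets, other than the members, 1 was called higher and 2 lower. The shares of all tested genes were 4.63% and 6.94%. The median log2 fold change of these targets was 0.00. IL6, an inflammatory cytokine, had 293, 385 and 278 CPM in vector and 92.4, 92.8 and 132 CPM in TFCP2L1 libraries, a log2 fold change of −1.59 ± 0.18 (edgeR adjusted p = 0.00142). An antisense gene overlaps 20.7% of the IL6 exon bases. FIGN, a microtubule-severing enzyme gene, fell from 118 ± 6.59 to 83.2 ± 6.14 CPM (−0.51 ± 0.08, edgeR adjusted p = 0.000470). THBS1, which encodes the matrix glycoprotein thrombospondin, went the other way, from 18.8 ± 1.29 to 37.3 ± 4.34 CPM (0.99 ± 0.11, edgeR adjusted p = 1.12e-05). The growth regulators MYC (228 ± 18.7 and 243 ± 31.8 CPM) and CDK6 (82.4 ± 4.0 and 79.1 ± 6.35 CPM) were not called.

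Across all tested genes the change was set beside the number of seed matches in the principal transcript. Genes with 0 matches (11100) were called lower in 7.18% of cases and higher in 5.25%, with a median log2 fold change of 0.01. Genes with 1 match (1100) were called lower in 7.91% and higher in 4.64%, with a median of 0.00. Those with 2 (113) were called lower in 12.4% and higher in 3.54%, with a median of −0.04. Of the 25 genes with 3 or more matches, 3 were called lower (HMGA2, FIGN and PTAFR) and 1 higher (SMC1A), with a median of −0.06. IGF2BP3 and HMGA1, with 1 match each, rose. The principal-transcript rule was chosen after seeing that the longest 3′ UTR of HMGA2 holds no match. By longest 3′ UTR, genes with 2 matches (144) were called lower in 10.4% and higher in 5.56%, with a median of −0.02. By that rule, genes with 3 or more matches had 2 called lower and 1 higher of 25, with a median of −0.01.

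**Figure D3:**
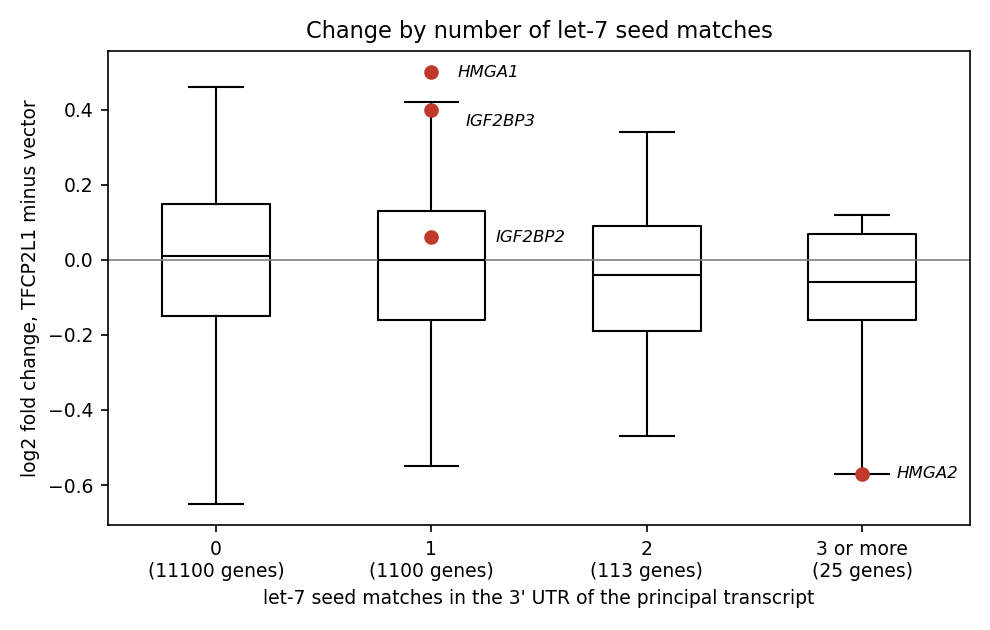
Log2 fold change (TFCP2L1 minus vector) of tested genes by the number of let-7 seed matches in the 3′ UTR of the principal transcript. Boxes span the quartiles with the median as a line, whiskers end at the lowest and highest genes inside the 5th to 95th percentile range, and red points are the 4 tested members. The boxes lie close to 0 in every class, HMGA2 (−0.57) is the gene at the end of the lower whisker of its class, with 2 genes below it, and HMGA1 (0.50) above the upper whisker of its own.

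Genes of the insulin-like growth factor (IGF) system were examined next, since IGF2 mRNA is the transcript after which the IGF2BP proteins are named. Of 13 tested genes, 1 was called higher and 4 lower, beside 4.63% and 6.94% of all tested genes. Their median log2 fold change was −0.08. IGF2, the fetal growth factor, had 17.5, 22.5 and 19.9 CPM in the vector libraries and 5.18, 4.03 and 7.15 CPM in the TFCP2L1 libraries. The groups were far apart, and the level fell to 0.273 of the vector level (log2 fold change −1.87 ± 0.18, edgeR adjusted p = 4.52e-06). Per length IGF2 was low in both groups, from 2.62 to 3.35 FPKM in vector and from 0.613 to 1.08 FPKM in TFCP2L1 libraries. Its exons overlap those of the readthrough gene INS-IGF2 and of the antisense gene IGF2-AS, so the authors' counting could have split or shared reads.

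The tested genes named as IGF-binding proteins moved in different directions, and IGFBP6 was not called (138 ± 12.7 and 106 ± 22.5 CPM, edgeR adjusted p = 0.113). IGFBP7 fell from 96.7 ± 5.51 to 53.7 ± 6.70 CPM (−0.85 ± 0.09, edgeR adjusted p = 1.34e-05), and IGFBP4 fell from 280 ± 10.7 to 226 ± 20.3 CPM (−0.31 ± 0.08, edgeR adjusted p = 0.0172). PAPPA, the protease that cleaves IGFBP4 and frees IGF, fell from 53.2 ± 4.40 to 38.3 ± 0.863 CPM (−0.47 ± 0.09, edgeR adjusted p = 0.00165), with 21.2% of its exon bases under an antisense gene. IGFBP3, the main carrier in serum, rose from 53.5 ± 3.30 to 74.2 ± 5.39 CPM (0.47 ± 0.08, edgeR adjusted p = 0.00130). The receptors were not called: IGF1R was at 38.9 ± 2.29 and 45.1 ± 2.43 CPM and IGF2R, which clears IGF2, at 454 ± 28.8 and 412 ± 45.8 CPM.

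**Figure D4:**
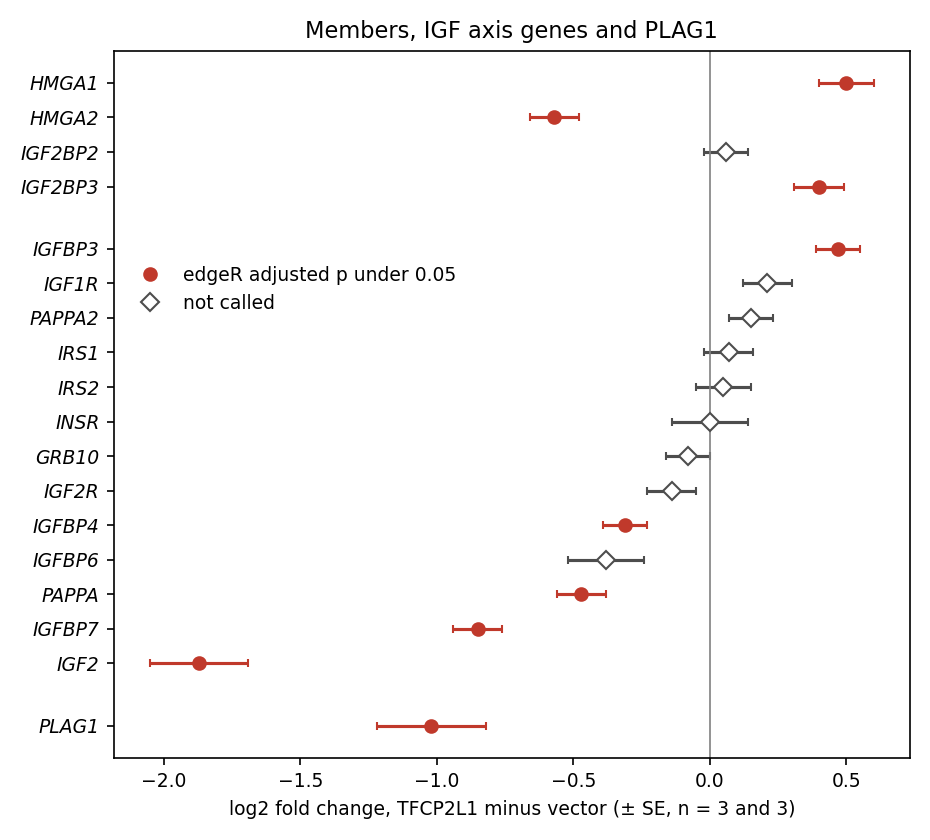
Log2 fold change (TFCP2L1 minus vector, ± SE, 3 libraries a group) of the 4 tested members, the 13 tested genes of the IGF system and PLAG1. Red circles passed an edgeR adjusted p under 0.05 and open diamonds did not. IGF2 (−1.87) and PLAG1 (−1.02) lie farthest left, and IGFBP3 (0.47) is the called IGF gene to the right.

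Among other oncofetal and embryonic genes, 8 were tested, with a median log2 fold change of −0.21. Of these, 0 were called higher and 2 lower (IGF2 and PLAG1), beside 4.63% and 6.94% of all tested genes. PLAG1, a zinc finger factor known to act downstream of HMGA2 and to activate IGF2, had 4.81, 5.52 and 6.51 CPM in vector and 2.69, 3.21 and 2.40 CPM in TFCP2L1 libraries. It fell by 1.02 on the log2 scale (SE 0.20, edgeR adjusted p = 0.00268), and the groups did not overlap. HMGA2, PLAG1 and IGF2 were each lower in all 3 TFCP2L1 libraries than in any vector library, as were 15.6% of all tested genes. PLAG1 and IGF2 were named because they were called, and a link among the 3 genes was not tested. TRIM71 (1.49 ± 0.379 and 1.34 ± 0.365 CPM) and NR6A1 (12.2 ± 1.92 and 10.6 ± 1.33 CPM), both let-7-controlled embryonic genes, were not called.

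Transcripts that IGF2BP proteins are known to bind gave 3 calls higher and 2 lower among 22 tested, with a median log2 fold change of −0.03. Of all tested genes, 4.63% were called higher and 6.94% lower. MKI67, the proliferation antigen gene, rose from 569 ± 42.9 to 836 ± 70.2 CPM (0.56 ± 0.08, edgeR adjusted p = 0.000343). FSCN1, which encodes the actin-bundling protein fascin, rose from 169 ± 3.20 to 222 ± 24.2 CPM (0.40 ± 0.08, edgeR adjusted p = 0.00472). LAMB2, a laminin gene, fell from 179 ± 1.22 to 137 ± 4.93 CPM (−0.38 ± 0.07, edgeR adjusted p = 0.00167), and IGF2 was the other gene called lower. ACTB, whose mRNA the family transports, was at 5086 ± 167 and 5562 ± 66.7 CPM and was not called, and neither was CD44 (1998 ± 61.1 and 1750 ± 88.7 CPM).

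The other N6-methyladenosine writers, erasers and readers had a median log2 fold change of 0.10. They gave 1 call higher and 0 lower among 24, beside 4.63% and 6.94% of all tested genes. That call was RBMX, an RNA-binding reader gene, at 215 ± 3.29 and 252 ± 10.5 CPM (0.23 ± 0.07, edgeR adjusted p = 0.0458), and it was lost without any of 5 of the 6 libraries (edgeR adjusted p 0.0662 to 0.163). METTL3, the catalytic writer, was at 49.9 ± 4.89 and 53.3 ± 8.32 CPM, and the demethylase FTO at 47.9 ± 3.81 and 44.9 ± 3.61 CPM.

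Other genes that encode high mobility group box or nucleosome-binding proteins had a median log2 fold change of 0.14. They gave 2 calls higher and 1 lower among 17, beside 4.63% and 6.94% of all tested genes. HMGN1, a nucleosome-binding protein gene, fell from 178 ± 6.33 to 138 ± 3.81 CPM (−0.36 ± 0.07, edgeR adjusted p = 0.00274). SSRP1 and PBRM1, subunits of histone chaperone and remodelling complexes, were both called at 0.28 ± 0.08 (edgeR adjusted p = 0.0386 and 0.0256), and both calls were lost without any single vector library. The SSRP1 call was also lost without TFCP2L1 replicate 1 or 2, and the PBRM1 call without TFCP2L1 replicate 3. HMGB1 was at 368 ± 10.5 and 407 ± 20.5 CPM and was not called.

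Of 11 tested genes known to be regulated by HMGA proteins, 2 were called higher and 1 lower, with a median of 0.18. The shares of all tested genes were 4.63% and 6.94%. CCNB2, a mitotic cyclin gene activated by both HMGA proteins, had 41.3, 43.1 and 40.3 CPM in vector and 60.7, 62.1 and 67.5 CPM in TFCP2L1 libraries (0.61 ± 0.08, edgeR adjusted p = 9.57e-05). PTGS2, the inducible cyclooxygenase gene, fell from 120 ± 4.41 to 72.3 ± 6.25 CPM (−0.73 ± 0.08, edgeR adjusted p = 1.35e-05). ERCC1, a DNA repair gene, was called at 0.27 ± 0.08 (edgeR adjusted p = 0.0329), a call lost without any single vector library or without TFCP2L1 replicate 1 or 3 (0.0621 to 0.161). The gene CD3EAP overlaps 28.6% of its exon bases on the opposite strand. The other HMGA2-linked genes SNAI1 (4.16 ± 1.14 and 4.89 ± 1.53 CPM) and TWIST1 (3.26 ± 0.716 and 3.68 ± 0.230 CPM) were not called.

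Promoter windows of 250 bases before the annotated start were read from RefSeq (GRCh38.p14) for HMGA1, IGF2BP2, IGF2BP3 and LIN28B, and 1 window of each of the 2 members that rose is printed on the strand of the gene. The HMGA1 window printed, the first of 2 annotated starts, is chr6:34236623-34236872 (plus strand) and the IGF2BP3 window is chr7:23470492-23470741 (minus strand).
HMGA1 window: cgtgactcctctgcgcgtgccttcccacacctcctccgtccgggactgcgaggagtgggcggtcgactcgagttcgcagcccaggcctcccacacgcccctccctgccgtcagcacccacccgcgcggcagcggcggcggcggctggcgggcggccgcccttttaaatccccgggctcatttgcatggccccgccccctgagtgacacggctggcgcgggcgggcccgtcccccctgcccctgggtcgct
IGF2BP3 window: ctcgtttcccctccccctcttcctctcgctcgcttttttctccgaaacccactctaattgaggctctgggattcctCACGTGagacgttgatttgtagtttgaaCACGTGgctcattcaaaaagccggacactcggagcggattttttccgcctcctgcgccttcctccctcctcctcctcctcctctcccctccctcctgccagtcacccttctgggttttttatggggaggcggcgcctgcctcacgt
A strict spelling of the repeat that TFCP2L1 and its CP2 relatives bind, CCAG, any 6 bases, CCAG, was sought on both strands. It was in 0 of 7 windows of these 4 members, and in 3.27% of all 35116 windows. At that share, 7 windows are too few to tell these members apart from other genes. HMGA2 and IGF2BP1 had no window in the set used and were not searched. The capitals in the IGF2BP3 window mark CACGTG, the E-box core, which reads the same on both strands and was looked for after the sequence was seen. It occurred 2 times there, and 6.34% of all windows held it at least once and 0.535% at least 2 times. These are descriptions of letters in short windows, and binding of TFCP2L1 or of E-box factors was not measured.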

How the data were processed

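RNA of 6 TPC1 libraries was sequenced after TRIzol extraction and a VAHTS Universal V6 library kit, per the labels' protocols. Tools listed in the submitters' processing notes are HISAT2, HTSeq and fastp, with no versions, and the build is GRCh38.p13. The authors deposited raw read counts per gene and FPKM values. The deposited FPKM equal the counts over length and library total for 21173 of 21173 genes within 0.001%, so they are no independent measurement.

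Counts were tested with edgeR 4.0.16 (R 4.3.3): filterByExpr, TMM scaling, robust quasi-likelihood F-test, two-sided, vector against TFCP2L1, Benjamini-Hochberg adjusted p under 0.05 over 14431 genes. SE is the log2 fold change divided by the root of F. Replicates differed by a chi-square of 7.80 to 45.5 per gene, so none was a copy. In simulated counts over 14217 genes, 50 genes were changed at each of the folds below. The comparison recovered 26% of 1.3-fold, 64% of 1.5-fold, 62% of 2-fold and 96% of 4-fold changes, and 4.62% of calls were false. The simulation gave 130 calls against 1670 in the data, so its cut-off on p was stricter and recovery in the data may differ.

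The members and gene lists were chosen with earlier results of these data known. Named genes were TFCP2L1, all members, HMGA2-AS1, per list up to 4 called genes of largest change (or the 2 of smallest p) and the 3 genes most alike each member; 1 of these is not reported here. Other genes, among them MALSU1, IGFBP4, PTAFR, SMC1A and uncalled list members, were named after their values were seen. Alternatives were other scalings and filters, DESeq2 1.42.0, limma-voom and limma 3.58.1 on log2(FPKM + 1) and log2(FPKM + 0.1), a replicate block and leaving out libraries. Positions and 3′ UTRs come from GENCODE v29.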

Additional observations from a re-analysis of the deposited data

How the results depend on the processing

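The 4 members kept their direction in all 17 alternatives. HMGA1 (log2 fold change 0.36 to 0.57 over single libraries left out) and HMGA2 (−0.65 to −0.50) stayed called in each of them, by the tool of that alternative, as did IGF2BP3 (0.32 to 0.48) except without vector replicate 1, where it was 0.33. IGF2BP2 (0.01 to 0.14) was called in none. The HMGA1 to HMGA2 ratio changed by 1.01 to 1.10 and IGF2BP3 to IGF2BP2 by 0.30 to 0.41 on the log2 scale. With single libraries left out, 298 to 766 genes were called higher and 621 to 1106 lower, against 668 and 1002. The lowest counts came without vector replicate 1 (298 higher, 645 lower) and vector replicate 3 (313 higher, 621 lower). Scaling by library totals only moved the share of calls that were higher from 40.0% to 49.5% and the median by 0.03. DESeq2 called 1988 genes and limma on log2(FPKM + 0.1) called 1317.

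Correlations of deviations were 0.07, −0.16 and −0.12 between same-numbered libraries and −0.11 to 0.22 between unlike-numbered ones. Deviations from a mean of 3 libraries cannot tell whether same-numbered libraries shared a culture or day. With the replicate block 328 genes were called higher and 649 lower, and edgeR gave HMGA1 0.49 (adjusted p = 0.0327), HMGA2 −0.57 (0.00632), IGF2BP3 0.40 (0.0265) and IGF2BP2 0.06 (0.726).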
